A study of Mus musculus with 12 samples.

Results

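The response of double-negative (DN) dendritic cells to a short culture was followed on 4 of the 12 arrays of a mouse spleen study. All 4 carried RNA of splenic cells sorted for high CD11c and for the absence of both CD4 and CD8. The 2 fresh arrays held cells processed directly at isolation, and the 2 cultured arrays held cells kept for 2 h at 37 °C. The other 8 arrays held CD4+ and CD8+ dendritic cells, fresh and cultured, with 2 arrays a group. The free-text description of fresh CD8+ replicate 1 names CD4 in place of CD8, while its title and source name CD8; it was grouped by its title, and it read 1210.4 for Cd8a and 92.0 for Cd4, where the fresh CD4+ arrays read 617.3 and 612.8 for Cd4. The labels state neither the strain and age of the mice nor whether the replicates, numbered as experiments 1 and 2, came from separate animals. The p-values therefore reflect how far these samples differ among themselves, and part of that spread may be technical. Every probe set of the array other than controls was taken, which gave 12422, and a probe set stands for a transcript.

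Dendritic cells take up antigen, process it and show it to T cells. A mature dendritic cell raises costimulatory molecules and the chemokine receptor that guides it to T cell zones, and it is known that handling and short culture outside the body can start this change. The DN cells are conventional dendritic cells of the CD8-negative branch that also lack CD4. NF-kB, interferon and the oxidative stress regulator NRF2 are known regulators of transcription in stimulated or stressed dendritic cells. A bulk array cannot tell fewer cells of a type apart from less RNA per cell.

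Intensities are the deposited Average Differences, which can lie below 0. An intensity of 91.37, 2 times the offset of the log scale, was taken as the detection floor. Itgax, which encodes the CD11c chain used in the sort, had intensities of 2236.1 and 2770.2 on the fresh and 1447.5 and 1336.9 on the cultured DN arrays. Cd4 and Cd8a lay below the floor on all 4 DN arrays, so the markers went with the labels, though less clearly for Cd4 after culture. Cultured DN replicate 1 read 90.5 for Cd4, just below the floor, and the cultured CD4+ arrays read 270.9 and 112.2. The noise of an array, the root mean square of its negative values, was 45.4 and 30.9 on the fresh and 82.5 and 61.4 on the cultured arrays. The Gapdh control probe sets of the 3' and 5' ends, whose ratio rises as RNA degrades, gave a ratio of 1.34 on cultured replicate 1 and of 0.922 to 1.02 on the other 3 DN arrays. The same ratio of the actin control went the other way, at 0.919 on cultured replicate 1 and 1.15 on cultured replicate 2. It was 0.933 and 0.932 on the fresh arrays. Rank correlations over all probe sets were 0.941 between the fresh and 0.902 between the cultured replicates, and 0.811 to 0.889 between fresh and cultured arrays.

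Culture for 2 h changed about 1 in 10 of the transcripts that could be tested. On at least 2 arrays 6159 probe sets exceeded the floor, and of these limma called 610 at an adjusted p under 0.05, which is 9.9%. Of these, 259 were higher (4.21%) and 351 lower (5.7%) after culture. At the gene level, with the brightest probe set standing for a gene, 191 of 4735 genes were higher (4.03%) and 297 lower (6.27%). The median log2 difference was 1.94 among probe sets called higher, -1.88 among those called lower and 0.02 over all tested. No called probe set had overlapping fresh and cultured intensities, but 63.4% of all tested probe sets did not overlap either.

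**Figure D1:**
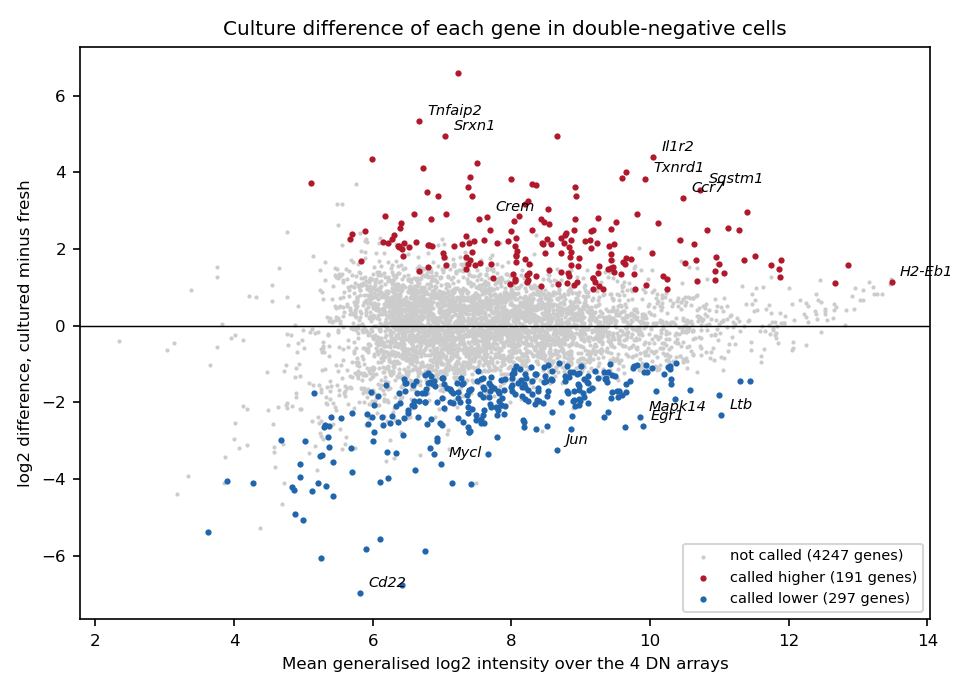
The log2 difference between cultured and fresh double-negative cells (vertical axis) is plotted against the mean generalised log2 intensity over the 4 arrays (horizontal axis), with 1 point per gene. The 191 genes called higher lie above 0 and the 297 called lower below 0. Genes not called overlap them in size of difference, as with Cd70 (3.70, not called) and Rela (0.95, called), since a call also depends on the standard error. The largest differences belong to genes of low to middle level, where fitted values below the floor depend on the offset.

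The number of calls rested on each of the 4 arrays. It was 198 without fresh replicate 1, 90 without fresh replicate 2, 148 without cultured replicate 1 and 452 without cultured replicate 2, where the remaining array was assumed to vary like those of the other groups. All 610 probe sets kept their direction in each of these fits, and 85 were called in all 4 of them, 62 higher and 23 lower. With the experiment number as a block, 1039 were called, and at the gene level 323 were higher and 493 lower. The block's counts are given for each list described below whose calls, both directions together, it moved by more than 1.5-fold. Lists not described below also moved. Actin cytoskeleton genes went from 0 higher and 2 lower to 2 and 3. Markers of conventional dendritic cells went from 2 and 0 to 5 and 0, and those of plasmacytoid dendritic cells from 0 and 0 to 0 and 1.

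The genes that rose most were of mixed function, and included receptor genes, the gene of a pro-apoptotic protein and the redox enzyme gene Txnrd1, described below. Il1r2, the decoy receptor that binds interleukin 1 without signalling, went from 287.5 and 182.4 on the fresh arrays to 5048.3 and 4642.5 on the cultured ones. Its log2 difference was 4.39 ± 0.42 (SE, limma, adjusted p = 0.000252), the largest among genes above the floor on all 4 arrays. Lilr4b, an inhibitory immunoglobulin-like receptor of myeloid cells, went from 191.8 and 205.3 to 4013.4 and 2553.5 (3.99 ± 0.39, adjusted p = 0.000252). For each gene both cultured arrays lay far above both fresh arrays. Procr, the endothelial protein C receptor, rose from 216.9 and 185.1 to 3362.5 and 2548.3, by 3.85 ± 0.24 on the log2 scale (adjusted p = 1.5e-05). Bcl2l11, which encodes the pro-apoptotic protein BIM, rose from 166.6 and 107.9 to 2190.6 and 1325.5 (3.62 ± 0.33, adjusted p = 0.000207), and of its other 2 probe sets 1 was called higher and 1 was not called. Litaf, an endosomal protein gene induced by lipopolysaccharide in macrophages, rose from 178.9 and 123.3 to 1469.2 and 1683.6 (3.37 ± 0.33, adjusted p = 0.000252).

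Further genes of this size were Basp1, which encodes a membrane-bound signalling protein, the kinase genes Map4k4 and Map2k3, the interferon-inducible membrane protein gene Ifitm2 and the stress-responsive gene Ndrg1. Their log2 differences lay between 2.71 (Map2k3) and 2.95 (Basp1). Basp1 was already bright in fresh cells, at 802.7 and 1183.1, and reached 7972.4 and 7123.2. Ndrg1 was not called without fresh replicate 2 (adjusted p = 0.0596) or without cultured replicate 1 (adjusted p = 0.0549), while Basp1, Map4k4, Map2k3 and Ifitm2 were called under every alternative fit tried.

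For 70 of the 259 probe sets called higher, both fresh arrays lay below the detection floor. For these the fold is a lower bound. Serpinb9, an inhibitor of granzyme B that protects antigen-presenting cells from killer cells, read 61.3 and 70.5 on the fresh and 2707.9 and 1856.8 on the cultured arrays, at least 23.2-fold higher (adjusted p = 0.000146). Ramp3, a partner protein of calcitonin-type receptors, was at least 15.2-fold higher (-16.1 and -22.0 against 1141.4 and 1881.4, adjusted p = 0.000324). Lmna, which encodes the nuclear lamins A and C, was at least 9.95-fold higher (77.9 and 44.6 against 948.1 and 975.7, adjusted p = 0.000377). Il1rn, the gene of the interleukin 1 receptor antagonist, was at least 8.16-fold and Plscr1, a phospholipid scramblase, at least 6.69-fold higher. Cultured replicate 1 read higher than replicate 2 for Il1rn (1330.4 against 466.9) and Plscr1 (986.2 against 422.8). All 5 calls held in every alternative fit.

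Among called genes above the floor on all 4 arrays, Jun had the largest decrease. Jun, which encodes an AP-1 subunit, read 864.5 and 1798.2 on the fresh and 111.8 and 145.0 on the cultured arrays, a log2 difference of -3.25 ± 0.46 (adjusted p = 0.00199). Ddr1, a collagen-binding receptor kinase, read 814.5 and 848.9 against 143.2 and 106.9 (-2.70 ± 0.31, adjusted p = 0.000672). Lmo2, an adaptor of blood-cell transcription factors, read 626.9 and 850.4 against 129.8 and 96.3 (-2.65 ± 0.32, adjusted p = 0.000745). In each of these genes the lower fresh array stood several-fold above the higher cultured array. Mapk14, the gene of the stress kinase p38 alpha, fell from 2159.1 and 2073.7 to 384.3 and 422.5 (-2.39 ± 0.30, adjusted p = 0.00107). Ltb, which encodes lymphotoxin beta of the TNF family, fell from 4176.7 and 5275.1 to 717.7 and 1207.7 (-2.33 ± 0.29, adjusted p = 0.001).

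Others of the 15 largest decreases were Exosc5, a subunit of the RNA exosome, Rbm38, an RNA-binding protein, Tcirg1, a subunit of the vacuolar proton pump, Chmp6, an endosomal sorting protein, Map11 and Parp8, with log2 differences from -2.62 (Exosc5) to -2.07 (Parp8). Of these only Map11 was called without each DN array in turn. Tcirg1 was lost without any 1 of the 4 DN arrays, with adjusted p from 0.0641 to 0.238. Exosc5, Rbm38, Chmp6 and Parp8 were lost without fresh replicate 2, with adjusted p from 0.0926 to 0.142, and Exosc5, Chmp6 and Parp8 also without cultured replicate 1, with adjusted p from 0.0616 to 0.193. Chmp6 was also lost without fresh replicate 1 (0.128).

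**Figure D2:**
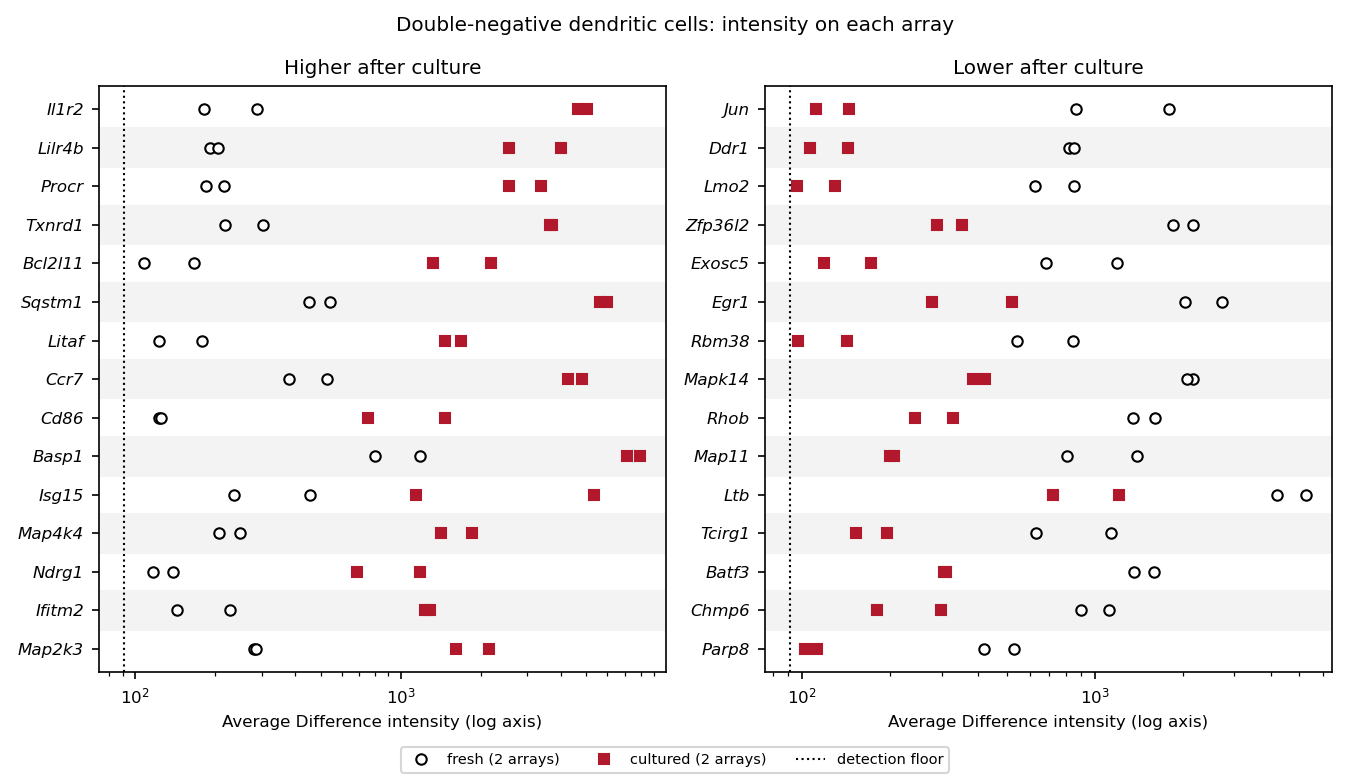
Average Difference intensity (horizontal log axis) on each of the 2 fresh and 2 cultured double-negative arrays for the 15 genes of largest increase (left) and of largest decrease (right) among called genes above the detection floor on all 4 arrays. In every gene shown both cultured arrays lie on the same side of both fresh arrays; Isg15 has the widest gap between its cultured arrays, at 1142.4 and 5326.7.

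Transcripts that dropped below the floor on both cultured arrays made up 148 of the 351 probe sets called lower. Cd22, an inhibitory sialic acid receptor known from B cells and also present in dendritic cells, read 465.6 and 862.8 on the fresh and -106.3 and -91.3 on the cultured arrays, at least 6.56-fold lower (adjusted p = 0.000416). Lyl1, a blood-cell transcription factor gene, was at least 6.68-fold lower (591.6 and 704.7 against 55.6 and 53.9, adjusted p = 0.00105). Ppfia4, a liprin scaffold gene, was at least 7.43-fold lower (618.1 and 835.3 against 15.2 and 43.0, adjusted p = 0.00114). Ddit4, an inhibitor of the growth kinase mTOR, was at least 9.25-fold lower (706.5 and 1132.4 against -95.9 and -26.5, adjusted p = 0.00361), and Grk6, a receptor kinase, at least 4.89-fold (405.8 and 548.7 against -53.6 and -31.8, adjusted p = 0.00227). Without fresh replicate 2 the adjusted p of Ddit4 was 0.0604 and that of Grk6 0.0532.

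Several genes of the redox defence rose. Of 24 tested genes on a list of oxidative stress genes 8 were higher and 1 lower, against 4.03% and 6.27% of all genes, and the list's median log2 difference was 1.19 against -0.02. Txnrd1, which encodes cytosolic thioredoxin reductase, read 303.5 and 218.3 on the fresh and 3662.7 and 3719.8 on the cultured arrays (3.83 ± 0.25, adjusted p = 1.5e-05). Sqstm1, which encodes the autophagy receptor p62, read 453.2 and 541.6 against 5619.7 and 5960.3 (3.54 ± 0.23, adjusted p = 1.5e-05). Srxn1, which encodes the peroxiredoxin repair enzyme sulfiredoxin, lay near 0 in fresh cells (2.8 and 1.4) and at 541.0 and 983.0 after culture, at least 7.55-fold higher (adjusted p = 0.00105). These 3 genes were called under every alternative fit, and their cultured replicates differed by less than 2-fold.

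Nfe2l2, the gene of NRF2 itself, rose from 216.8 and 146.9 to 853.7 and 747.6 (2.14 ± 0.35, adjusted p = 0.0042). The other genes called higher were Txn1 (thioredoxin), Fth1 (ferritin heavy chain), Slc3a2 (a subunit of the cystine transporter) and Gclc (a subunit of the first enzyme of glutathione synthesis). The log2 differences of Txn1, Fth1 and Slc3a2 were 1.36 ± 0.26, 1.11 ± 0.24 and 1.16 ± 0.25. After quantile normalization the difference of Fth1 was 0.61 and was not called (limma, adjusted p = 0.0546). Gclc read -7.9 and 55.7 against 127.1 and 245.0, at least 1.86-fold higher, and with values below the floor set to it its adjusted p was 0.301. Cat, the catalase gene, was the single member called lower, at -1.68 ± 0.39, and its other probe set was not called and had the opposite sign (0.36). Hmox1, the heme oxygenase gene that NRF2 is known to induce, read 490.5 and 310.9 against 877.6 and 1869.5 and was not called (1.71 ± 0.55, adjusted p = 0.0734), but was with the experiment number as a block (0.0314). The list held 3 to 6 higher calls when 1 DN array was left out: 4 without fresh replicate 1, 3 without fresh replicate 2, 5 without cultured replicate 1 and 6 without cultured replicate 2. Nfe2l2 was lost without fresh replicate 2 (0.0689). Txn1, Fth1, Slc3a2, Gclc and Cat were each lost without fresh replicate 1, with adjusted p from 0.0635 to 0.248, and without fresh replicate 2, from 0.0591 to 0.173. All of these but Slc3a2 were also lost without cultured replicate 1, from 0.0676 to 0.201, and Fth1, Slc3a2 and Gclc without cultured replicate 2, from 0.0885 to 0.189. The call of Gclc ended under 14 of the 23 alternatives in all.

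Promoter sequences are shown for Txnrd1 and Srxn1, which were called under every fit and held a motif marked below. The 250 bases before the start are taken from RefSeq (GRCm38.p6), from chr10:82858956-82859205 for Txnrd1 and chr2:152105274-152105523 for Srxn1, both on the plus strand. Capitals mark the core of the antioxidant response element (TGACNNNGC, either strand), to which NRF2 is known to bind, in Txnrd1, and AP-1 motifs (TGACTCA, either strand), which it can overlap, in Srxn1.
Txnrd1: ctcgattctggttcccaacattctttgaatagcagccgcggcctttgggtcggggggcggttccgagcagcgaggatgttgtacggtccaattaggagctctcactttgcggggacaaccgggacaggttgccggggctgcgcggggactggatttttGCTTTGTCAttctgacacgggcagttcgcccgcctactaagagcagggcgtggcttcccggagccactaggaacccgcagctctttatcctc
Srxn1: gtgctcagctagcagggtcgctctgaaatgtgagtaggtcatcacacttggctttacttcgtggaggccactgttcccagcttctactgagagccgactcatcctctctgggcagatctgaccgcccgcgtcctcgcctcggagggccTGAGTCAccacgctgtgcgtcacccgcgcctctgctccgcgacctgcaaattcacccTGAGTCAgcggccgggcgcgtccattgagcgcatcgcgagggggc
The Txnrd1 match lies on the minus strand at -92 from the start, and the Srxn1 matches at -102 and -45. Srxn1 also had an antioxidant core 28 bases after the start, outside the printed bases. Over windows from 250 bases before to 50 after a start, the antioxidant core was found in 3 of 8 called genes of the list with a window, in 3 of 13 members not called, in 2 of 5 called interferon genes and in 13.99% of all 27025 genes. AP-1 was found in 1 of these 8 and in 5.95% of all genes. Sqstm1, also called under every fit, held neither motif in its window and had a match to the NF-kB consensus. A match is a description of the sequence and not evidence of binding.

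Lists of NF-kB signalling and of dendritic cell maturation held mostly members that were not called, and the called ones were nearly all higher. Of 19 NF-kB and feedback genes 5 were higher and none lower (median 1.14), and of 15 costimulation and maturation genes 4 were higher and 1 lower (median 1.02). The shares of all genes were 4.03% higher and 6.27% lower. Traf1, a signalling adaptor of TNF receptors and a known NF-kB target, read 829.9 and 702.6 on the fresh and 4311.1 and 4314.6 on the cultured arrays (2.50 ± 0.26, adjusted p = 0.000327). Tnfaip2, another TNF-induced gene, read -37.5 and 2.2 against 1041.7 and 399.8 and was at least 6.68-fold higher (adjusted p = 0.00176). Rela, the gene of the p65 subunit, rose by 0.95 ± 0.23, and the inhibitor genes Nfkbib and Tnip1 rose by 1.70 ± 0.44 and 1.24 ± 0.35. Rela, Nfkbib and Tnip1 were each lost without any 1 of the 4 DN arrays, with adjusted p from 0.0541 to 0.327, so that 2 of the 5 calls were left without either fresh replicate or without cultured replicate 1 and 4 without cultured replicate 2, when further members were called. Tnip1 lost its call under 13 and Nfkbib under 10 of the 23 alternatives.

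Among maturation genes, Cd86, a ligand of the T cell receptor CD28, read 123.1 and 125.8 in fresh and 1475.6 and 756.7 in cultured cells (3.04 ± 0.39, adjusted p = 0.00114). Cd83, a surface marker of mature dendritic cells, was bright already and rose from 1987.9 and 2188.3 to 6648.0 and 7032.7 (1.71 ± 0.25, adjusted p = 0.0024). Each gene had 1 further probe set that moved the same way without being called. Cd80, the second CD28 ligand, rose by 1.71 ± 0.48 and was lost without fresh replicate 1 (0.139), fresh replicate 2 (0.243) or cultured replicate 1 (0.334). Il7r, a cytokine receptor gene, was at least 5.02-fold higher and Cd1d1, which presents lipids, was lower by -1.67 ± 0.37. Il7r was lost without fresh replicate 2 (0.08), and Cd1d1 without fresh replicate 1 (0.0821), fresh replicate 2 (0.15) or cultured replicate 2 (0.1).

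Of 13 TNF family ligands and receptors tested, 3 rose and 1, Ltb, fell (4 and 3 with the block). Without the block 4.03% of all genes were higher and 6.27% lower. Tnfsf4, the OX40 ligand gene, read -10.0 and 19.8 against 661.1 and 288.5 and was at least 4.53-fold higher (adjusted p = 0.000672). Tnfrsf1b, a TNF receptor gene, rose from 380.8 and 300.4 to 1890.0 and 1176.6 (2.13 ± 0.31, adjusted p = 0.0021). Cd40, the receptor for T cell help, read 241.4 and 201.3 against 1548.3 and 551.8 (2.05 ± 0.48, adjusted p = 0.0234), and was not called without fresh replicate 1 (0.0877), fresh replicate 2 (0.175) or cultured replicate 1 (0.205). For Cd40 and Tnfsf4 cultured replicate 1 read more than 2-fold above cultured replicate 2.

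The chemokine receptor genes Ccr7 and Ccr2 moved in opposite directions. Ccr7, which guides mature dendritic cells to T cell zones, rose from 528.8 and 381.7 to 4804.2 and 4282.5 (3.33 ± 0.31, adjusted p = 0.000207). Ccr2, a receptor that recruits monocytes and their relatives, fell from 322.5 and 166.5 to 26.1 and 6.4, at least 2.42-fold (adjusted p = 0.0189), and this call was lost without any 1 of the DN arrays (0.0706 to 0.159) and with values below the floor set to it (0.113). Of 13 chemokine ligands, Ccl22, which attracts regulatory T cells, rose from 126.4 and 67.2 to 1367.0 and 564.9 (3.16 ± 0.51, adjusted p = 0.00383), and Cxcl10 rose as described with the interferon genes. Ccl22 was lost without fresh replicate 2 (0.0634), which left no ligand called. With the block 4 ligands were called higher, and without it 2, against 4.03% of all genes.

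**Figure D3:**
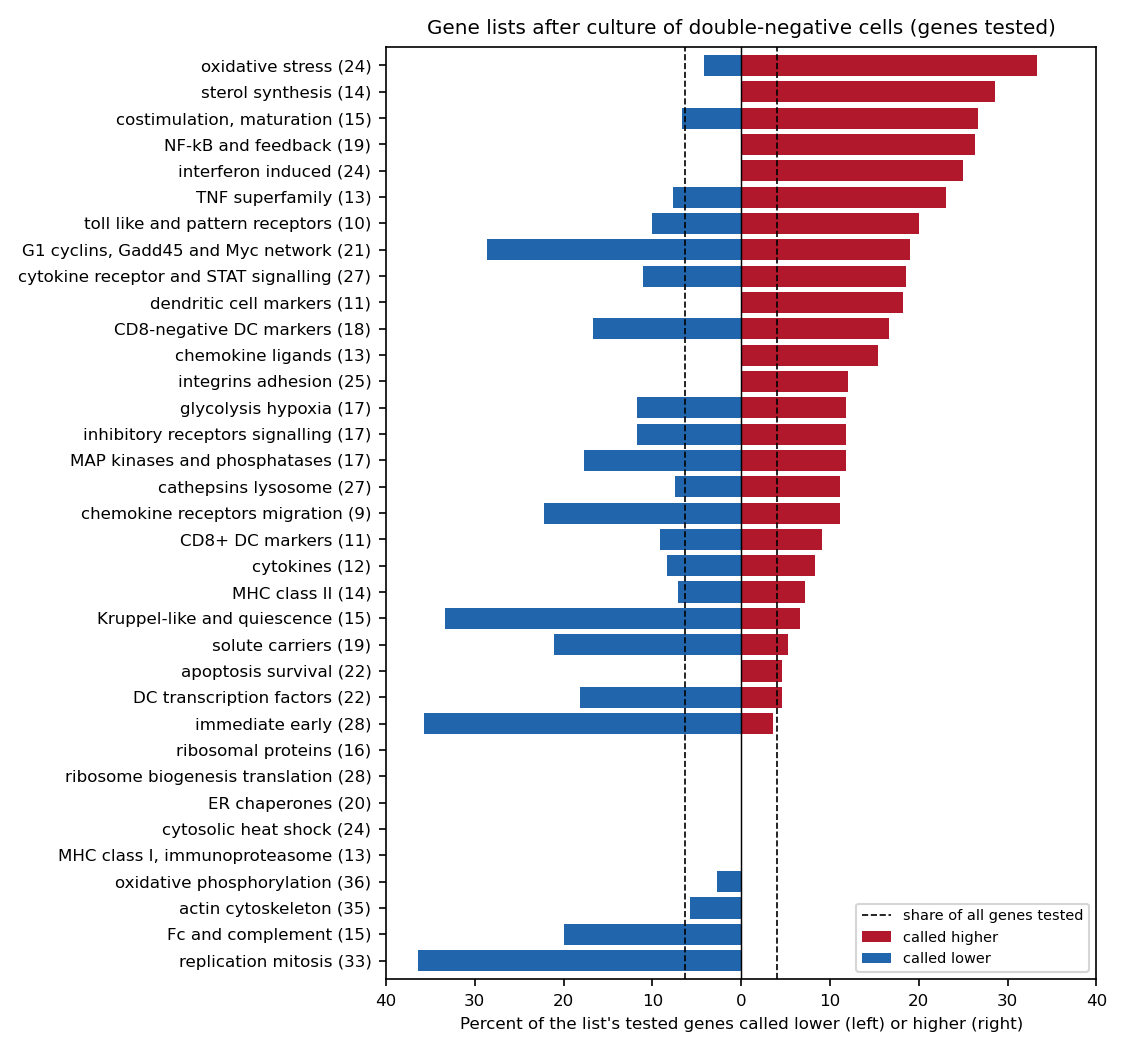
For each gene list, the percent of its tested genes called lower (left) or higher (right) after culture of double-negative cells is shown, with the number tested in parentheses and dashed lines at the shares of all genes, 6.27% lower and 4.03% higher. Oxidative stress, sterol synthesis, maturation, NF-kB and interferon genes have the longest bars to the right, and replication, immediate-early and Kruppel-like genes the longest to the left.

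Interferon-induced genes read higher mainly on 1 of the 2 cultured DN arrays. Of 24 tested members 6 were called higher and none lower (median 1.15), against 4.03% and 6.27% of all genes. In the other subsets the list's median culture difference was 1.40 (CD4+ cells) and 1.79 (CD8+ cells). Isg15, the ubiquitin-like modifier, read 454.6 and 235.3 in fresh cells and 5326.7 and 1142.4 after culture (2.91 ± 0.63, adjusted p = 0.0166). Ifit1, which binds viral RNA, read 7.7 and 26.9 against 812.8 and 163.0 and was at least 3.80-fold higher (adjusted p = 0.00758). Rsad2, the gene of the antiviral enzyme viperin, read 69.0 and 24.1 against 1333.4 and 233.8, at least 5.80-fold higher (adjusted p = 0.0164). In all 3 the cultured replicates themselves lay more than 4-fold apart, with replicate 1 the higher.

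Cxcl10, a chemokine of T and NK cells, read 38.4 and 35.0 in fresh cells and 1665.3 and 201.4 in cultured cells, at least 6.02-fold higher (adjusted p = 0.0109). Ifi204, an intracellular DNA sensor gene, rose by 2.16 ± 0.37 and Socs1, a feedback inhibitor of interferon signalling, by at least 3.78-fold. Cultured replicate 1 exceeded cultured replicate 2 for 24 of the 24 tested members, by a median of 2.02 on the log2 scale, where the median over all 4735 genes was -0.03. Against the fresh mean, the list's median was 2.24 on cultured replicate 1 and 0.10 on cultured replicate 2. Without cultured replicate 1 the list had 1 higher call, and without cultured replicate 2 it had 13. A fit without the 3 arrays of high Gapdh ratio, which also leaves out cultured replicate 1, had the same 6 higher calls and 1 lower (Ifi47), with a list median of 0.10. Without fresh replicate 1 it had 3, and without fresh replicate 2 none. Isg15, Rsad2, Ifi204, Ifit1 and Socs1 were lost without cultured replicate 1, with adjusted p from 0.0616 to 0.23, and all 6 without fresh replicate 2, from 0.0591 to 0.17. Ifit1, Cxcl10 and Socs1 were also lost without fresh replicate 1, from 0.0641 to 0.144, and Isg15, Cxcl10 and Rsad2 when the 4 DN arrays were fitted alone, from 0.119 to 0.171.

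The gap between replicates was smaller for this list in the other 5 groups, with medians from 0.07 to 0.32. Replicate 1 exceeded replicate 2 by a median of 0.27 in cultured CD4+ cells (14 of 24 members higher), 0.13 in cultured CD8+ cells (14 of 24) and 0.32 in fresh DN cells (16 of 24). Chemokine ligands had a gap of 1.27 in cultured DN cells (13 of 13 members higher on replicate 1) and TNF family genes one of 1.19 (11 of 13), but for these the other cultured groups had gaps as well, of 1.21 and 1.15 in CD4+ and 0.81 and 0.71 in CD8+ cells. The oxidative stress list had a gap of -0.27. Cultured replicate 1 was also the DN array with the highest Gapdh ratio and noise, and with the lowest actin ratio (0.919). On 1 array none of these can be told apart from the interferon gap. Cultured CD4+ replicate 1 had a Gapdh ratio of 1.97, an actin ratio of 1.16 and a noise of 108, with the list's gap there at 0.27. Whether RNA quality or noise bears on the gap was not tested.

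**Figure D4:**
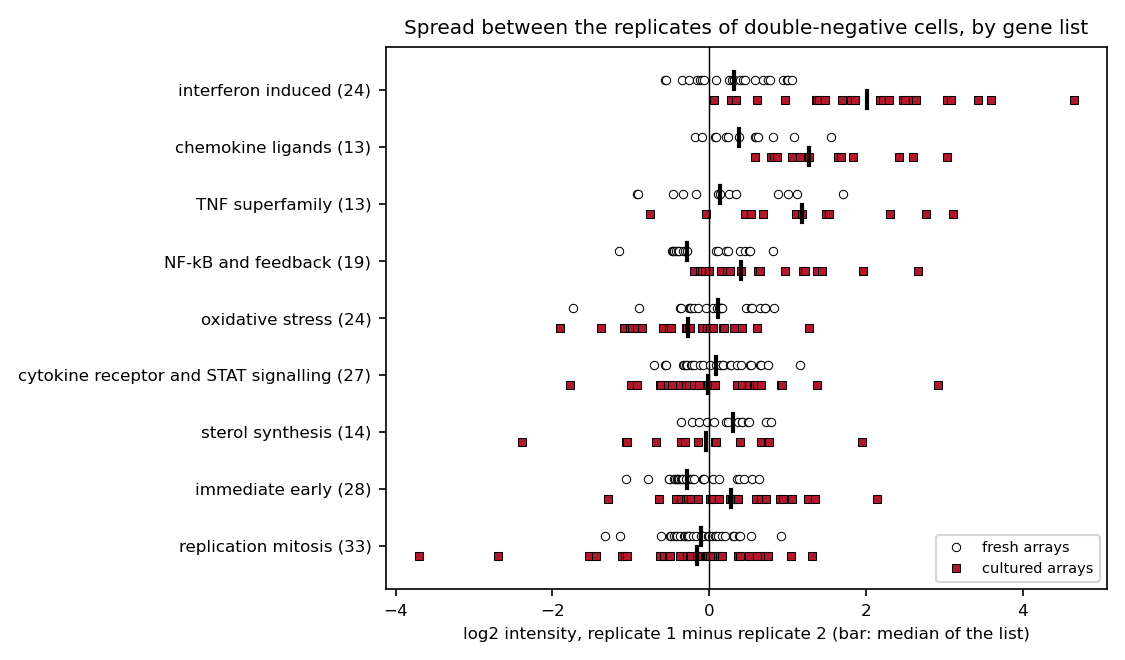
Each point is 1 gene of a list, placed by its log2 intensity on replicate 1 minus that on replicate 2, for the fresh (open circles) and the cultured (filled squares) double-negative arrays; thick bars are list medians. All 24 interferon-induced genes lie to the right of 0 on the cultured arrays, with a median of 2.02, while the oxidative stress genes lie on both sides.

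The promoters of Isg15, Ifit1 and Rsad2 are printed because all 5 called interferon genes with a RefSeq window held the interferon-stimulated response element, the site known to take the interferon-activated factor ISGF3. The 250 bases before the start come from chr4:156200819-156201068 (minus strand) for Isg15, chr19:34640639-34640888 (plus strand) for Ifit1 and chr12:26456453-26456702 (minus strand) for Rsad2, in GRCm38.p6. Capitals mark its matches on either strand, each being 2 copies of GAAA separated by 2 bases.
Isg15: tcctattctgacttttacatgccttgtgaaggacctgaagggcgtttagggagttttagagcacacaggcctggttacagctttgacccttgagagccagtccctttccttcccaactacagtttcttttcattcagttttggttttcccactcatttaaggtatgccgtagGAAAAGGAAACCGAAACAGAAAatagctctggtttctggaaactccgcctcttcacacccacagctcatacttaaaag
Ifit1: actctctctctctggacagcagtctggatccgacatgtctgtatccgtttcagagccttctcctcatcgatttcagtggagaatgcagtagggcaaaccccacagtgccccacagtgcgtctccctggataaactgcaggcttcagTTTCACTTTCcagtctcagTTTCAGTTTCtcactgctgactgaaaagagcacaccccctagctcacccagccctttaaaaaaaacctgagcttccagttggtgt
Rsad2: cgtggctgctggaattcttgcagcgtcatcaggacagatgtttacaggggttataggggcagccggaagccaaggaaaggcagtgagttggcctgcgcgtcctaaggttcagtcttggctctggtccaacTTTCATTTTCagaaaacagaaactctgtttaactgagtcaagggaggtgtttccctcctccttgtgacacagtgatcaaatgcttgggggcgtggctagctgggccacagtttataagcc
Isg15 had matches at -78, -72 and -66, which overlap each other, Ifit1 at -104 and -85, and Rsad2 at -120. Of 19 tested members with a window 11 held the motif, against 3.99% of all genes, and none of the 21 oxidative stress genes did. It was found in 5 of 5 called members and in 6 of 14 members not called. The list was made of interferon-induced genes and the motif was added after the data were seen, so these shares test no cause of the rise. In the windows of the 17 higher genes of largest difference or bound that had one, AP-1 was found in 4, the NF-kB consensus in 3, the E-box (CACGTG) in 1 and the CRE (TGACGTCA) and the CArG box in none, against 5.95%, 5.14%, 8.09%, 2.03% and 1.81% of all genes.

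Of 27 genes of cytokine receptor and STAT signalling 5 were higher and 3 lower, against 4.03% and 6.27% of all genes. Stat4, which transmits interleukin 12 and type I interferon signals, rose from 85.6 and 99.5 to 1140.4 and 760.1 (3.25 ± 0.39, adjusted p = 0.00074). Csf2rb2, which encodes a beta chain of the interleukin 3 receptor, rose from 114.1 and 93.1 to 508.6 and 704.6 (2.47 ± 0.35, adjusted p = 0.00187). Both were called under every alternative fit. Stat5a rose by 2.69 ± 0.46 and Stat3 by 1.73 ± 0.34, and each had a second probe set called higher. These calls were lost without fresh replicate 2 (0.0838 and 0.137) or cultured replicate 1 (0.0618 and 0.0777), which left 2 higher calls in either case. The lower calls were Jak3, a kinase of cytokine receptors (-2.64 ± 0.58), Ifngr1, an interferon gamma receptor chain (-1.53 ± 0.42), and Il6ra, an interleukin 6 receptor chain (at least 2.52-fold). All 3 were lost without fresh replicate 1 (0.0603 to 0.14), fresh replicate 2 (0.092 to 0.224) or cultured replicate 1 (0.0635 to 0.305), and Il6ra also without cultured replicate 2 (0.0866).

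Immediate-early genes, which respond within minutes to stimulation and whose messages are short-lived, included 10 lower and 1 higher of 28 tested. The other 17 were not called, and the list had a median log2 difference of -0.87. Among all genes 6.27% were lower and 4.03% higher. Fos, the partner of Jun in AP-1, read 4429.0 and 4692.5 on the fresh and 1689.0 and 1677.7 on the cultured arrays (-1.44 ± 0.27, adjusted p = 0.00804). Egr1, a zinc finger factor, read 2037.4 and 2718.5 against 523.6 and 279.1 (-2.62 ± 0.60, adjusted p = 0.021). Ier2 read 3407.5 and 4348.5 against 1033.5 and 1144.3 (-1.82 ± 0.31, adjusted p = 0.00524). The fresh arrays lay above the cultured ones by more than 2-fold in each gene.

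Rhob, a small GTPase gene, fell from 1346.6 and 1609.5 to 243.5 and 327.0 (-2.37 ± 0.28, adjusted p = 0.000672), and Zfp36l2, which promotes decay of AU-rich messages, from 1854.3 and 2158.1 to 288.4 and 353.5 (-2.64 ± 0.37, adjusted p = 0.0017). Zfp36, of the same family, fell by -1.44 ± 0.39, Fosb by -1.73 ± 0.37 and the stress factor gene Atf3 by -1.68 ± 0.35. Crem, a cyclic AMP responsive regulator, was the 1 member that rose, from 87.7 and 51.5 to 595.3 and 479.1, at least 5.53-fold (adjusted p = 0.00228). Jun, Rhob, Zfp36l2 and Crem were called in every alternative fit. Leaving out fresh replicate 1 left 5 lower calls, fresh replicate 2 left 3, cultured replicate 1 left 4 and cultured replicate 2 left 7. Without fresh replicate 2, Egr1, Fos, Ier2, Fosb, Atf3 and Zfp36 had adjusted p from 0.0832 to 0.294. Without fresh replicate 1, Egr1, Fos, Fosb, Atf3 and Zfp36 had 0.0543 to 0.0889. Without cultured replicate 1, Egr1, Fos, Ier2, Fosb and Zfp36 had 0.0542 to 0.223, and without cultured replicate 2, Egr1, Fosb, Atf3 and Zfp36 had 0.0735 to 0.107.

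On a list of Kruppel-like factors and genes of resting cells, 5 of 15 tested were lower (Klf2, Klf4, Rgs2, Sesn1 and Tob1) and 1 higher (Il7r), with a median of -1.26, or -0.86 with values below the floor set to it. Of 6 Kruppel-like factors tested, Klf2 and Klf4 were the 2 called. Among all genes 6.27% were lower and 4.03% higher. Klf2, a factor that keeps lymphocytes and myeloid cells quiescent, read 553.2 and 1245.6 in fresh and -139.7 and 44.6 in cultured cells, at least 8.59-fold lower (adjusted p = 0.00509). Klf4 fell from 1261.5 and 1588.8 to 311.1 and 485.2 (-1.86 ± 0.34, adjusted p = 0.00722), and Rgs2, a brake on G protein signalling, from 2471.4 and 2619.8 to 790.2 and 583.2 (-1.91 ± 0.32, adjusted p = 0.00513). None of the 5 was called without fresh replicate 2, where Klf2 had an adjusted p of 0.08 (0.157 when the 4 DN arrays were fitted alone), Klf4 of 0.1, Rgs2 of 0.0676, Sesn1 of 0.092 and Tob1 of 0.379. There were 3 lower calls without fresh replicate 1, 2 without cultured replicate 1 (Klf4 0.0796) and 4 without cultured replicate 2.

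Transcription factors of the dendritic cell lineage included 4 lower and 1 higher of 22 tested. Of all genes 6.27% were lower and 4.03% higher, so the single higher call was near that share. Batf3, a factor required for CD8+ dendritic cells and also present in other subsets, fell from 1363.1 and 1588.0 to 311.6 and 305.2 (-2.25 ± 0.35, adjusted p = 0.00334). Dtx1, a Notch pathway gene, fell from 2014.2 and 2277.9 to 592.4 and 931.0 (-1.53 ± 0.28, adjusted p = 0.00735). Ikzf1, the gene of the lymphoid and dendritic cell factor Ikaros, was at least 4.16-fold lower. Id2, an inhibitor of E proteins that favours conventional over plasmacytoid dendritic cells, rose from 2320.1 and 2557.0 to 5451.1 and 6200.0 (1.25 ± 0.30, adjusted p = 0.0258). Without fresh replicate 2 no member was called, with adjusted p of 0.0549 for Batf3, 0.0941 for Dtx1, 0.191 for Ikzf1 and 0.155 for Id2. There were 3 lower and no higher calls without fresh replicate 1 (Ikzf1 0.0765, Id2 0.132) and 1 lower call without cultured replicate 1 (Dtx1 0.0818, Ikzf1 0.136, Id2 0.113). Without cultured replicate 2 there were 3 lower calls and no higher one (Ikzf1 0.0681, Id2 0.106).

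Of 33 tested genes of DNA replication and mitosis 12 were lower and none higher, against 6.27% and 4.03% of all genes. The list's median log2 difference was -1.42, or -0.96 with values below the floor set to it. Ccnb2, a mitotic cyclin gene, read 990.8 and 1235.1 in fresh and 249.1 and 292.5 in cultured cells (-2.02 ± 0.28, adjusted p = 0.00159). Cdk1, its partner kinase, read 177.7 and 217.3 against 46.3 and 25.8 and was at least 2.06-fold lower (adjusted p = 0.00551). Rrm2, a subunit of ribonucleotide reductase, was at least 2.98-fold lower and Nusap1, a spindle protein, at least 1.90-fold. Most members had low intensities, so many folds are small lower bounds. The median stayed between -1.46 and -1.38 without each DN array in turn, but the lower calls numbered 2 without fresh replicate 1, 1 without fresh replicate 2, 2 without cultured replicate 1 and 7 without cultured replicate 2. Ccnb2 was called in all 4 of these fits. Without fresh replicate 2 the adjusted p was 0.0838 for Cdk1, 0.161 for Rrm2 and 0.15 for Nusap1. Rrm2 and Nusap1 were also lost without fresh replicate 1 (0.0567 and 0.0641) and without cultured replicate 1 (0.0909 and 0.106), and Rrm2 without cultured replicate 2 (0.0533).

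Regulators of the G1 phase and of the Myc network divided, 4 higher and 6 lower of 21, against 4.03% and 6.27% of all genes. Cdkn1a, the gene of the cell cycle inhibitor p21, rose from 66.7 and 99.2 to 1573.7 and 815.3 (3.69 ± 0.38, adjusted p = 0.000324). Odc1, the first enzyme of polyamine synthesis, rose from 186.8 and 192.9 to 894.5 and 1085.7 (2.36 ± 0.24, adjusted p = 0.000353), and Mxi1, an antagonist of Myc, from 132.1 and 161.7 to 1039.2 and 845.8 (2.65 ± 0.33, adjusted p = 0.000941). Gadd45b, a stress sensor that NF-kB is known to induce, rose from 833.0 and 1333.3 to 6233.0 and 5602.8 (2.49 ± 0.38, adjusted p = 0.00318). Mycl, the Myc family member of dendritic cells, fell from 412.6 and 465.9 to 39.2 and 6.8, at least 4.54-fold (adjusted p = 0.000545). These 5 calls held in every alternative fit. The lower calls of the list numbered 2 without fresh replicate 1, 1 without fresh replicate 2, 2 without cultured replicate 1 and 5 without cultured replicate 2.

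On a list of sterol synthesis and related lipid genes, 4 of 14 tested members were higher, against 4.03% of all genes, with a median of 0.87. The list also held the fatty acid enzyme genes Fasn, Scd1 and Scd2, the sterol exporter gene Abcg1 and the regulator gene Srebf1, which were not called. Hmgcs1, which makes the precursor of mevalonate, read 321.5 and 226.6 in fresh and 945.7 and 899.6 in cultured cells (1.76 ± 0.38, adjusted p = 0.0166). Idi1, an isoprenoid enzyme, read 92.0 and 108.8 against 590.4 and 371.8 (2.16 ± 0.50, adjusted p = 0.0221), and Sqle, squalene epoxidase, 171.9 and 147.1 against 393.8 and 435.3 (1.36 ± 0.30, adjusted p = 0.0189). Msmo1, a sterol demethylation enzyme, was at least 3.06-fold higher. None of the 4 was called without fresh replicate 1 (0.0547 to 0.116), fresh replicate 2 (0.137 to 0.167) or cultured replicate 1 (0.0951 to 0.178), and Idi1 was the 1 of them still called without cultured replicate 2. In CD8+ cells Hmgcs1, Sqle and Idi1 had culture differences of 0.41, 0.20 and 0.11. The differences between the subsets' effects were 1.35 ± 0.54, 1.16 ± 0.43 and 2.05 ± 0.71 and did not pass the test (adjusted p = 0.998 for each).

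Lysosomal and adhesion genes included calls that held in every fit. Lgmn, a lysosomal protease gene, rose from 215.3 and 210.7 to 943.3 and 1067.6 (2.22 ± 0.28, adjusted p = 0.001). Cstb, a cathepsin inhibitor gene, rose from 673.8 and 599.4 to 2272.5 and 3936.4 (2.23 ± 0.29, adjusted p = 0.00135). Cd9, a tetraspanin, rose by 1.91 ± 0.27. Itgav, the integrin alpha V gene, rose by 2.03 ± 0.29, with 1 of its other 2 probe sets called higher and 1 not called. Fyn, a Src family kinase gene from the list of inhibitory receptors and their signalling, rose by 1.85 ± 0.27. For each of these genes both cultured arrays lay more than 2-fold above both fresh arrays. Of 27 lysosomal genes 3 were higher and 2 lower (4 and 4 with the block), and of 25 adhesion genes 3 were higher and none lower. Without the block 4.03% of all genes were higher and 6.27% lower, near the lysosomal share of lower calls. Cd63, called higher, was counted on both lists.

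Antigen presentation genes differed in both directions, and few were called. Of 14 MHC class II genes 1 was higher and 1 lower (4 and 2 with the block), and of 13 MHC class I and immunoproteasome genes none was called (1 higher and 1 lower with the block). Without the block 4.03% of all genes were higher and 6.27% lower, so the class II counts were near these shares. H2-Eb1, a class II beta chain, read 8261.5 and 7260.1 in fresh and 15550.3 and 18473.6 in cultured cells (1.13 ± 0.32, adjusted p = 0.0488), and Ciita, the master regulator of class II genes, 1008.8 and 993.3 against 340.8 and 188.2 (-1.97 ± 0.56, adjusted p = 0.0499). Both calls were lost without any 1 of the DN arrays, with adjusted p from 0.141 to 0.288 for H2-Eb1 and 0.107 to 0.232 for Ciita. H2-Aa and H2-Ab1, the other class II chains, had differences of 1.22 ± 0.37 and 0.93 ± 0.29 and were not called (adjusted p = 0.0591 and 0.0629), but were with the block (0.0316 and 0.0375). These are among the brightest transcripts, and brightness moved with the result. The 100 probe sets brightest in the other 2 subsets had a median difference of 0.52 in DN cells, with 93% above 0, and the next 900 a median of 0.07. After quantile normalization these medians were -0.04 and -0.05, and the adjusted p of H2-Eb1 was 0.89.

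Several lists had no called member, where 4.03% of all genes were called higher and 6.27% lower. These were cytosolic heat shock proteins (24 tested, median 0.24), chaperones of the endoplasmic reticulum (20, median 0.25), ribosome biogenesis and translation (28, median 0.36) and ribosomal proteins (16, median 0.47, which was -0.08 after quantile normalization). With the block, each of these but the endoplasmic reticulum list had 1 higher call. Of 36 genes of oxidative phosphorylation 1 was lower and none higher (2 lower with the block). Of 22 apoptosis and survival genes 1, Bcl2l11, was called, against 6 higher and 2 lower with the block. Its antagonists Bcl2l1 and Mcl1 had differences of 2.19 ± 0.63 and 1.10 ± 0.33 and were not called (adjusted p = 0.0516 and 0.0572), but were with the block (0.00711 and 0.0463).

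Markers of other spleen cells were mostly not called, where 4.03% of all genes were called higher and 6.27% lower. Of 11 B cell genes 9 were above the floor on some DN array, the brightest being Ighm at up to 2118.2, and the summed intensity was 3523.0 and 2719.1 on the fresh and 2858.1 and 1600.9 on the cultured arrays, and 1 of 8 tested members, Cd22, was called lower (1 higher and 1 lower with the block). Of 9 T cell genes 1 was above the floor on any DN array, of 10 neutrophil genes 1 and of 5 NK cell genes 2, where Klrd1 read up to 1108.6. Of 7 red cell genes 4 were above it, with a summed intensity of 1660.2 and 586.7 on the fresh and 1979.9 and 920.1 on the cultured arrays and Hba-a1 at up to 814.3. Plasma cell genes summed to 1031.6 and 1041.6 on the fresh and 3699.0 and 2168.1 on the cultured arrays, where Prdm1, which activated dendritic cells also express, was called higher (adjusted p = 0.0164). The Prdm1 call was lost without fresh replicate 1 (0.0752), fresh replicate 2 (0.13), cultured replicate 1 (0.172) or the 3 arrays whose Gapdh ratio was high (0.0553), and with values below the floor set to it (0.155). Of 11 macrophage and monocyte genes 7 were above the floor, and they summed to 1951.7 and 1767.7 against 1925.3 and 1106.0. Of 8 tested, Cd14 was called higher and C1qa lower, and both calls were lost without fresh replicate 1 (0.0641 and 0.164), fresh replicate 2 (0.242 and 0.227) or cultured replicate 1 (0.234 and 0.322). The part of such cells in the results was not tested.

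The culture response of DN cells ran parallel to that of the other 2 subsets, which was measured on other arrays in the same study. All 610 probe sets called in DN cells moved in the same direction in CD4+ cells, and 598 of them (98%) did so in CD8+ cells, where 81.3% and 76.3% of all tested probe sets did. Of the 259 called higher in DN cells 212 were also called higher in CD4+ and 154 in CD8+ cells, and of the 351 called lower 280 and 138. In CD4+ cells 1133 probe sets were called (18.4%) and in CD8+ cells 501 (8.13%). The median difference of the DN calls was 2.04 (higher) and -1.79 (lower) in CD4+ cells and 1.63 and -1.30 in CD8+ cells. Il1r2, Txnrd1, Sqstm1, Procr and Ccr7 had log2 differences of 3.22 to 5.55 in CD4+ and 3.60 to 4.22 in CD8+ cells.

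**Figure D5:**
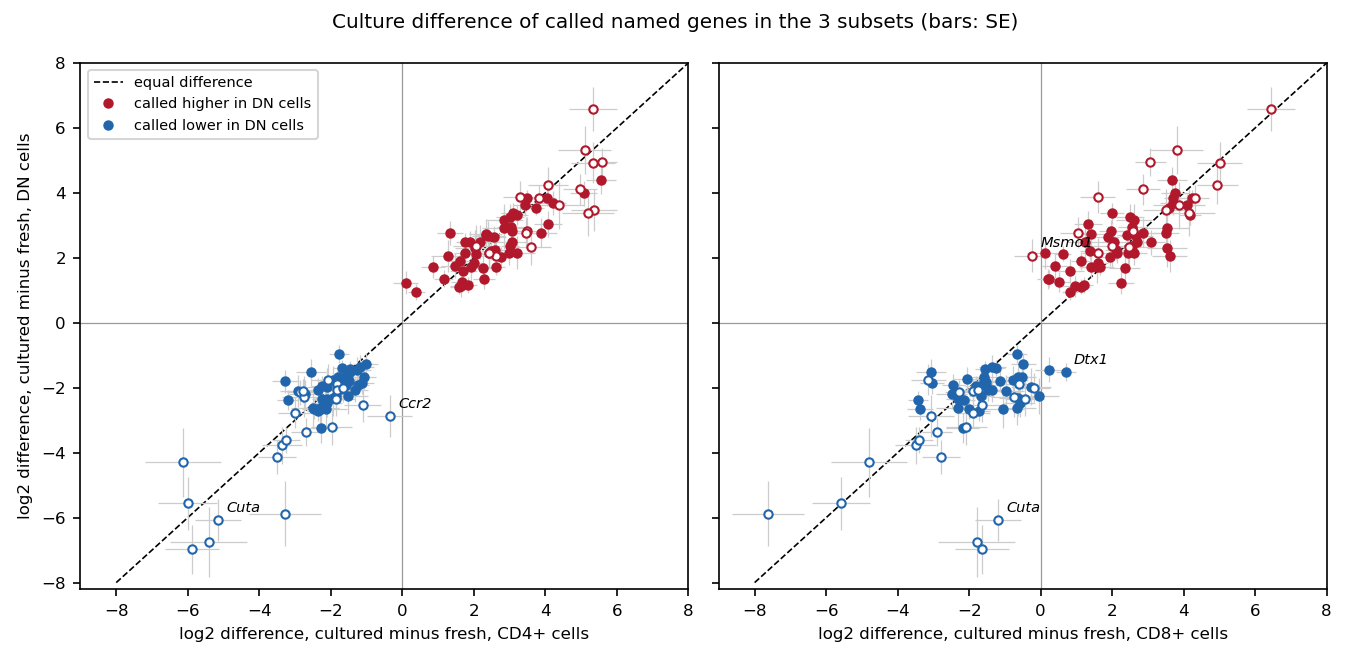
Culture differences (log2, cultured minus fresh, bars are SE) of genes chosen by the rules for named genes and called in double-negative cells, plotted against the same difference in CD4+ cells (left) and CD8+ cells (right); the dashed line marks equal differences, and open circles are genes below the floor in 1 DN group, whose fitted differences depend on the offset. Nearly all points lie in the same quadrant in the 3 subsets, while Dtx1, Msmo1 and Zfp36 lie across 0 in CD8+ cells.

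The difference between the DN response and that of another subset was tested directly. No probe set was called for DN against CD4+ cells (0%), where the smallest adjusted p was 0.999, nor for DN against CD8+ cells (0%), where it was 0.426. At an unadjusted p under 0.05 there were 127 and 250. The standard error of such a difference had a median of 0.63 on the log2 scale, which limited this test to large differences. Against CD8+ cells, genes of lowest p were Dtx1, which differed by -2.23 ± 0.40, Cuta, and Crybg1, which differed by 1.51 ± 0.33 (adjusted p = 0.426, 0.426 and 0.61). Cuta read 292.2 and 330.1 in fresh and -242.1 and -41.8 in cultured DN cells and was called lower there (at least 3.23-fold, adjusted p = 0.000377). The test of the Ccr2 effect in DN against CD4+ cells gave an adjusted p of 0.999. No size of the difference is given for Cuta and Ccr2, since both lay below the floor in cultured DN cells. Without cultured CD4+ replicate 2, 72 probe sets were called for DN against CD4+ cells, 70 higher and 2 lower.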

How the data were processed

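RNA of sorted cells was hybridised to 12 oligonucleotide arrays, 2 for each of 6 groups. The deposited intensities are Average Differences after global scaling by the authors, per the labels; the software used is not given in the sources used here. Members and gene lists were chosen with earlier results of these data known. A generalised log2 scale was used, with an offset of 45.69 taken from the size of the negative values, which understates folds of dim genes. Of 12488 probe sets, 66 controls were left out, and 6159 of the others passed the filter. The platform annotation gave 1 symbol to 10833 probe sets, several to 396 and none to 1193, and only those with 1 symbol were named.

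The contrasts were fitted with limma 3.58.1 in R 4.3.3 over all 12 arrays, with 1 mean per group, an intensity trend and robust eBayes (6 residual degrees of freedom), and Benjamini-Hochberg adjustment over the 6159 probe sets. A gene with several tested probe sets (666 genes) was represented by the one brightest over the arrays. For a group below the floor on both its arrays, the fold is the bright group's mean against the floor. The number of arrays limits the precision.

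Named genes were the 15 of largest increase and of largest decrease above the floor on all 4 DN arrays, the 6 of largest bound each way, up to 4 of lowest p per list, and those of lowest p in the differences between subsets. Tnip1, Cd80, Gclc, Txn1, Fth1, Cat, Hmox1, Socs1, Gadd45b, Fos, Fosb, Ier2, Atf3, Zfp36, Rpa1, Rpa3, Rfc1, Rfc5, Jak3, Il6ra, Ifngr1, Sesn1, Tob1, Ifi47, Ighm, Klrd1 and Hba-a1 were added after their values were seen. Further probe sets of Cd80, Fth1, Atf3, Map11 and Zfp36l2 moved the same way without a call. Promoter windows, 250 bases before to 50 after a start, came from RefSeq (GRCm38.p6). The antioxidant and interferon motifs were added after the data were seen. The 23 alternatives changed the scale, filter, normalization, variance model, block or arrays used. Python 3.11.15, pandas 2.3.3, numpy 2.4.6 and matplotlib 3.10.9 made the tables and plots.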

Additional observations from a re-analysis of the deposited data

How the results depend on the processing

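The count of 610 calls in DN cells ran from 502 to 813 under changes of offset, floor, filter, normalization, eBayes setting and when the 3 arrays of high Gapdh ratio were left out. It was 1172 with array weights and 1178 when the 4 DN arrays were fitted alone. Leaving out each of the 12 arrays in turn gave 90 to 966. Of 116 called genes with a test in the text, 51 were called under all 23 alternatives, and none of the 122 genes with a test in the text changed sign. Differences between subsets, 0 in the fit reported, gave 0 to 72 calls against CD4+ and 0 to 3 against CD8+ cells when 1 array was left out. They gave 2 and 1 when the arrays of high Gapdh ratio were left out, and against CD8+ cells eBayes without trend gave 1. Labels give the groups the same experiment numbers, but do not state what a number shares. With the number as a block, 1039 probe sets were called in DN cells and 0 in both differences. Same-numbered arrays deviated from their group means with a correlation of 0.267 between fresh and cultured DN cells and 0.106 to 0.444 over all 15 pairs of groups, and the block ended no call of a gene tested in the text and added those of Hmox1, H2-Aa, H2-Ab1, Bcl2l1 and Mcl1. With 2 arrays a group, depth of signal limits the dim genes: 5 called probe sets lay below the floor on all 4 DN arrays.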

Other observations

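Gene families were also counted by their symbols, as 10 families chosen after the values were seen and not tested as sets. Some of their members, such as Ptpn6, Psmb8, Psmb9, Psmb10 and Psme1, are on the lists as well. Of 5 genes of the single-strand binding and clamp-loading factors of DNA replication (Rpa, Rfc), 4 were lower after culture. Rpa1, a subunit of the single-strand binding complex, read 516.1 and 370.9 in fresh and 67.5 and 46.1 in cultured DN cells, at least 4.53-fold lower (limma, adjusted p = 0.00509). Rfc5, a clamp loader subunit, read 293.1 and 409.6 against 85.6 and 107.2 (log2 difference -1.78 ± 0.34 SE, adjusted p = 0.0083). Rpa3 and Rfc1 were at least 1.61-fold and 1.37-fold lower. Rpa1 lost its call without fresh replicate 1 (0.0547) and Rfc5 without fresh replicate 2 (0.125) or cultured replicate 1 (0.0743). Rpa3 and Rfc1 lost theirs without fresh replicate 1 (0.0566 for each), fresh replicate 2 (0.0941 and 0.14) or cultured replicate 1 (0.057 and 0.0818).

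Of 51 mitochondrial ribosomal protein genes 5 were lower and none higher (median -0.47), and of 17 protein tyrosine phosphatase genes 5 were lower and none higher (median -0.41). Of 5 peroxin genes, which build peroxisomes, 3 were lower. Of 43 proteasome genes 1 was higher and none lower (median 0.19). The shares over all genes were 4.03% higher and 6.27% lower.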
